A study of Caenorhabditis elegans with 2 samples.

Results

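Actins and muscle myosins are the main proteins of the contractile filaments, and their genes are among the long-studied structural genes of the nematode Caenorhabditis elegans. The regions listed for the tagged protein ALY-2 were examined at 10 of these genes, namely the actins act-1, act-2, act-3, act-4 and act-5, the myosin heavy chains unc-54, myo-1, myo-2 and myo-3, and the paramyosin unc-15. The genes were taken by name from the WBcel235 annotation, and all 10 were found among 19973 protein-coding genes on the nuclear chromosomes. The tagged protein is a worm homologue of the mRNA export adaptors called Aly or REF, which join messenger RNA as it is transcribed and processed. Chromatin immunoprecipitation followed by sequencing (ChIP-seq) was applied to whole third-stage (L3) larvae, both sexes pooled, of strain OP217. This strain carries the unc-119(ed3) mutation on chromosome III and the insertion ddIs172, labelled as targeting aly-2, and the experiment was directed at the eGFP-tagged protein. The promoter of the insertion is not in the labels, which name aly-2 as the antibody target. All samples belonged to 1 group of 2 biological replicates, recorded as separate biosamples. A possible control experiment named in the labels was not analysed here. There was therefore no other condition, and the comparisons are between genes, between places within a gene and between the replicate lists.

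The values are the deposited heights of listed regions, each ranked within its own list. The pooled list held 17335 regions, the list of replicate 1 held 30000 and that of replicate 2 held 26751. An optimal list of 368 peaks holds the pooled regions that the authors kept after comparing replicates by their irreproducible discovery rate, and its lowest height was 43.6. The longer lists include background regions by their own name, so a listed region of low height is not by itself evidence of binding. Read depth is unknown. Whole larvae average over all cells, and which cells gave the signal was not measured. Heights of different lists are not on 1 scale. Where heights of several lists are printed together, each is to be read within its own list. Lists are compared by rank, though they differ in length.

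In the sarcomere, myosin heavy chains form the head and rod of thick filaments, paramyosin forms their core, and actin forms the thin filaments along which myosin pulls. In the worm, unc-54 and myo-3 encode the heavy chains of body wall muscle, while myo-1 and myo-2 encode those of the pharynx, the feeding organ. The actins act-1, act-2, act-3 and act-4 are expressed largely in muscle, with broader expression for some of them. The actin act-5 is required in the intestine, where it builds the core of the microvilli. The 3 genes act-1, act-2 and act-3 lie together within 10726 bp of chromosome V, act-4 lies on chromosome X and act-5 on chromosome III.

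Some of the actins are near-identical copies, and act-5 is more divergent, so their sequences are shown first. The coding sequences of act-1 and act-3 were 100% identical over 1128 bases. That of act-2 was 96.2% identical to act-1, that of act-4 94.1%, and that of act-5, at 1125 bases, 83.9%. The encoded act-1 and act-3 proteins were the same, act-2 and act-4 had 99.2% and 99.7% of residues in common with them, and act-5 had 92.3%. The same 120-base stretch of each coding sequence follows, on the coding strand, covering codons 129 to 168 of act-1, with capitals where a base differs from act-1. In act-5 it lies inside a listed region of height 29.2. The stretches are at chrV:11081505-11081624 (+ strand), chrV:11077579-11077698 (- strand), chrV:11072692-11072811 (- strand), chrX:4963127-4963246 (+ strand) and chrIII:13605566-13605685 (- strand), in RefSeq's copy of WBcel235.
act-1: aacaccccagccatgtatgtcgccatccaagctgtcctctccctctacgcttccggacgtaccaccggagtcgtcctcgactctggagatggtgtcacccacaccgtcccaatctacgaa
act-2: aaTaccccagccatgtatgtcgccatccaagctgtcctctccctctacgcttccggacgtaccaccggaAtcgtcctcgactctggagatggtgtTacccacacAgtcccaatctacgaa
act-3: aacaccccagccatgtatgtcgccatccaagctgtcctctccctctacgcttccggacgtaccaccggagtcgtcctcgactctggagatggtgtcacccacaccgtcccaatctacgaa
act-4: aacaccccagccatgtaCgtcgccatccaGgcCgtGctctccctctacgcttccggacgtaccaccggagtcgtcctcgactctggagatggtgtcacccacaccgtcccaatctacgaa
act-5: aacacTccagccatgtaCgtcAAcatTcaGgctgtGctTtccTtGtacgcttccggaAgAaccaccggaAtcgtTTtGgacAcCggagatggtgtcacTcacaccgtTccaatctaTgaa
In this stretch act-2 and act-4 each differed from act-1 at 4 bases and act-5 at 21. A read that falls in such a stretch of act-1 matches act-3 equally well.

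How much of each gene is repeated in this way was counted in windows of 36 bases, as the share that occurs at another place in the genome on either strand. It was 87.4% of windows for act-1, 41.7% for act-3 and 35.4% for act-2. The annotated act-3 gene includes a long first intron that act-1 and act-2 lack. The share fell to 5.32% for act-4 and 0.926% for act-5, and none of the myosin and paramyosin genes exceeded 0.464%. In windows of 100 bases act-1 stayed at 81.3% and act-2 dropped to 10.6%.

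**Figure D1:**
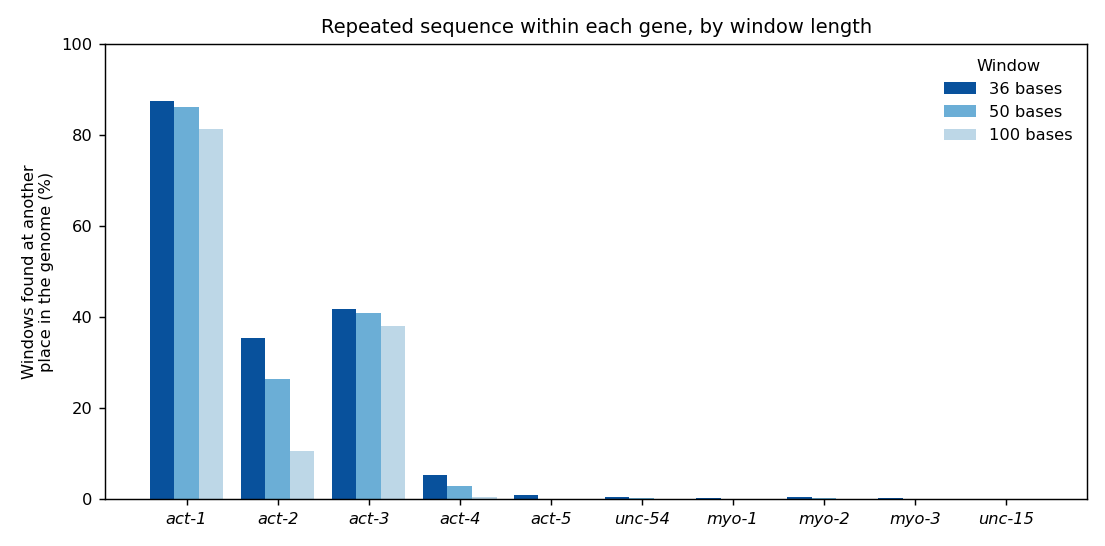
Share of windows (vertical axis, %) within each gene that occur at another place in the genome, for windows of 36, 50 and 100 bases (bars). The bars of act-1, act-2 and act-3 stand far above those of the other genes, with act-1 at 87.4%, 86.2% and 81.3%.

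The genes were then compared with all protein-coding genes. Only unc-54 carried an optimal peak, where an optimal peak counts if its summit lies in the gene or within 500 bp of it. That is 1 of 10 members beside 2.38% of all protein-coding genes, and 1 of the 5 members of 6000 bp or more beside 5.09% of the 2395 genes of that length. All 10 members had at least 1 pooled region, against 46.2% of all genes, and 8 had a region in each replicate, against 44.9%. These replicate regions could lie anywhere at the gene, not necessarily at the same place. When both replicates had to cover the summit of 1 pooled region, 6 members remained, without act-2 and act-3. The share of all genes was not counted by that stricter rule. Long genes have regions more often. Of the 5 members of 6000 bp or more, 5 had a pooled region, against 80.7% of genes of that length, and 3 had a region in each replicate, against 86.3%. Among the 1000 highest pooled regions, 4 members were represented, act-3, act-5, unc-54 and unc-15, against 5.81% of all genes. Of the members of 6000 bp or more, 2 of 5 were represented there, against 12.4%. With so few members these shares are a description and were not tested.

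The median of the highest heights of the members was 30.1, beside 20.3 over the 9221 genes that have a pooled region. The height of 85.9 at unc-54, which comes from its 3′ end, a sequence that worm transgenes often carry, was at or above that of 99.5% of these genes. Next came act-5 (38.5), act-3 (36.1), unc-15 (34.4), myo-3 (32.7) and act-1 (27.5), which were at or above between 78.5% and 92.1% of them. Lower still were act-4 (22.7) and myo-2 (21.2). The lowest were myo-1 at 16.3, at or above 20.02% of the genes with a region, and act-2 at 16.2, at or above 19.9%. Each of these values is a single pooled height with no error of its own, and differences between neighbours in this order, such as act-3 and unc-15, were not tested.

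**Figure D2:**
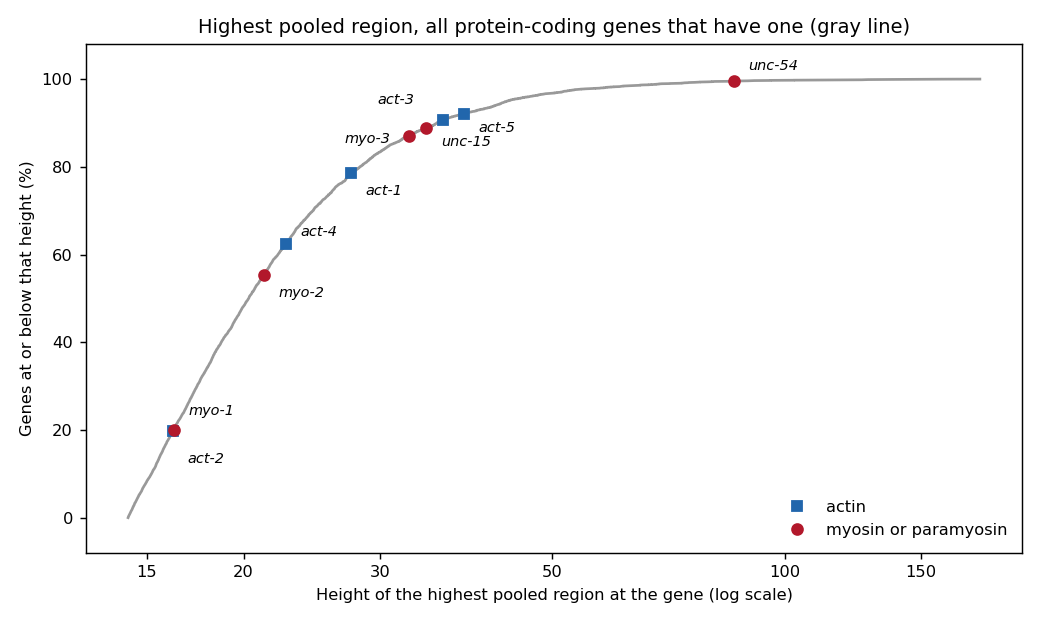
Height of the highest pooled region at a gene (horizontal axis, log scale) against the share of the 9221 genes with a region that are at or below it (vertical axis, %). The line is all protein-coding genes and the points are actins (squares) and myosins or paramyosin (circles), with unc-54 at 85.9 apart from the other 9, which lie between 16.2 and 38.5.

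The members held 36 pooled regions in all, 12 at actins and 24 at the myosins and paramyosin, which formed 26 after overlapping regions were merged. Per kb of gene and flanks the members had 0.62 regions, against 0.206 for all protein-coding genes and 0.224 for genes of 6000 bp or more. After merging these were 0.447, 0.189 and 0.204. With every listed region counted, the density was highest at act-5 (1.51 per kb) and unc-54 (1.17 per kb) and lowest at myo-1 (0.11 per kb). This order depends on overlapping regions. After merging, act-1 (0.846 per kb) and act-4 (0.835 per kb) stood above act-5 (0.753 per kb) and unc-54 (0.699 per kb), and unc-15 went from 0.658 to 0.263 per kb. Of the 2395 genes of 6000 bp or more, 3 had a density at least that of unc-54 when every region counted and 34 did after merging, unc-54 itself included. By place, 6 of the 36 summits lay within 500 bp of the 5′ end, 14 within 500 bp of the 3′ end and 16 in the body. These are 16.7%, 38.9% and 44.4%, beside 23.9%, 34% and 42.1% of all pairs of a pooled summit and a gene. By gene, 9 of 10 members had a region at the 3′ end, all but act-2, beside 25.7% of all genes. At the 5′ end 6 members had one, beside 19%. These shares are over all genes, with or without a pooled region, while every member had at least 1. Of the 9221 genes with any pooled region, 5138 had one at the 3′ end and 3798 at the 5′ end.

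**Figure D3:**
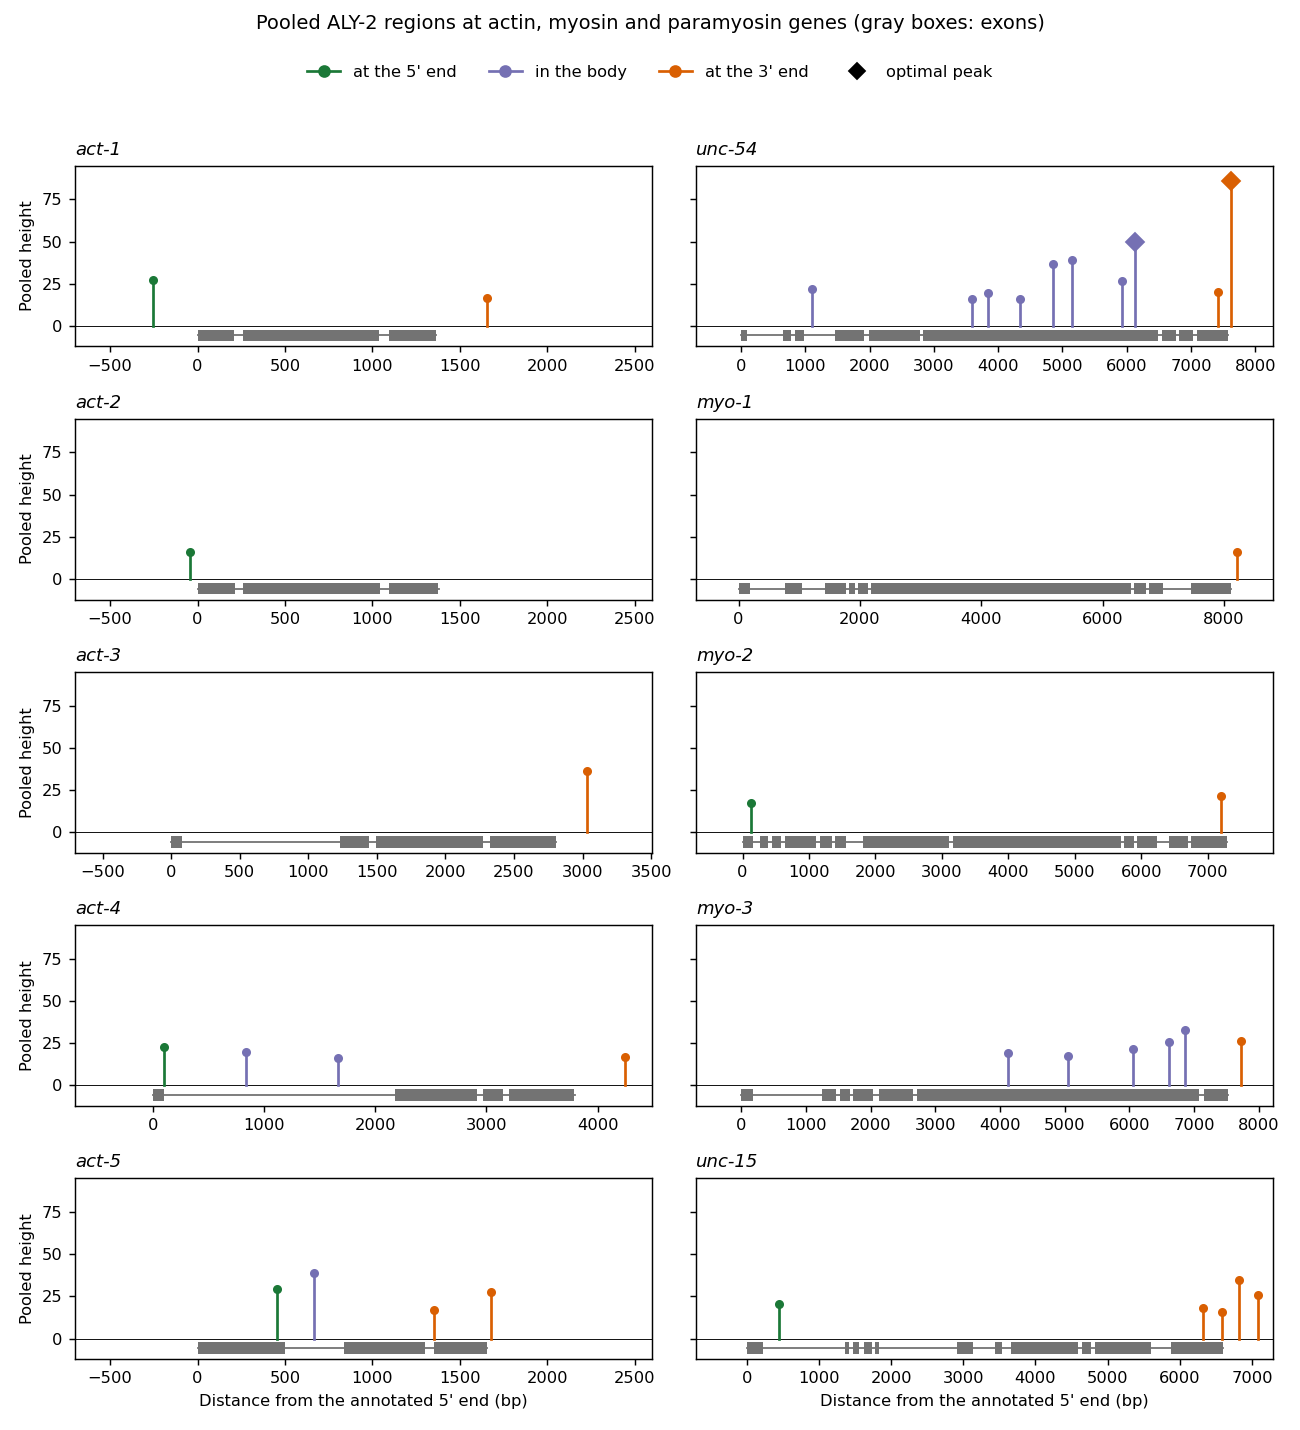
Pooled regions at the 10 genes, with distance from the annotated 5′ end (horizontal axis, bp) and pooled height (vertical axis). Each line with a point is 1 region, coloured by place, diamonds are optimal peaks and gray boxes are exons; unc-54 has both diamonds, at 85.9 and 49.8, and act-2 and myo-1 have 1 low region each.

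The myosin heavy chain unc-54 had the strongest regions. This gene, which encodes the main heavy chain of body wall muscle, spans 14855901 to 14863482 on the minus strand of chromosome I. Its highest region, at 14855655 to 14856050, had a pooled height of 85.9 and rank 42. It had heights of 54.2 in replicate 1, at rank 17, and 31.8 in replicate 2, at rank 225. Both replicates thus placed a region of high rank at this end of the gene. The pooled summit lay 48 bp beyond the 3′ end of unc-54. The summits of the replicate regions lay 28 bp beyond that end and 2 bp before it.

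The next gene downstream is aex-5, transcribed in the same direction, whose 5′ end is only 73 bp away from unc-54. The pooled summit falls in that gap, 26 bp upstream of aex-5, and is the only one of the 36 that lies nearer to an end of another protein-coding gene than to either end of the member. The gene aex-5 encodes a proprotein convertase. The list cannot tell which of the 2 genes the peak belongs to. As background, the 3′ end of unc-54 is widely used in worm transgene constructs. The labels do not say whether the insertion ddIs172 carries any of it, and reads from such a copy and from the gene itself cannot be told apart in these lists. The height of 85.9, its rank and its percentile are therefore those of the sequence, and whether the insertion adds to them was not tested. The regions in the body of unc-54 are described apart from it. In the ranking of all genes by their highest region, unc-54 and aex-5 share rank 42, just below ZC190.4 and ZC190.5 (86.0) and just above the heat shock protein gene hsp-1 and nra-1 (85.8).

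Within unc-54 the second optimal peak lay in coding sequence, at 14857156 to 14857551, with a pooled height of 49.8 and rank 231. It was at height 46.3 and rank 54 in replicate 2, and at 19.97 and rank 767 in replicate 1. A pooled region that overlaps it (height 26.5, rank 2184) had its summit under the same region of replicate 1. In replicate 2 its summit lay under that region of height 46.3 and under another of height 22.3 (rank 715). Further into the gene, the regions of height 39.0 (rank 566) and 36.7 (rank 675) overlap each other and differ between replicates. The first was covered in replicate 2 only (33.6, rank 183). The second was covered at height 30.7, rank 116, in replicate 1 and at 11.3, rank 7839, in replicate 2. Both were below the lowest height of the optimal list.

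The remaining pooled regions of unc-54 were lower, between 16.02 and 21.7 in height. Of the 8 in the body, 6 lay nearer to the 3′ than to the 5′ end, and 7 of 8 had their summit in coding sequence. No pooled region lay at the 5′ end of unc-54. The nearest region of replicate 1 had its summit 535 bp inside the gene (height 9.56, rank 14068). Replicate 2 listed one of height 13.9 (rank 3915) at an offset of -196 bp from the 5′ end, where negative offsets are upstream.

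The second body wall heavy chain, myo-3 (chromosome V, 12226817 to 12234343), had no optimal peak. Its 6 pooled regions ran from the middle of the gene to just past its 3′ end, with heights from 17.2 to 32.7. The highest (rank 1027) lay in coding sequence, 660 bp before the 3′ end, and was covered at height 21.7 in replicate 2 (rank 806) but not in replicate 1. The region of height 26.3 beyond the 3′ end was covered in both, at 17.9 in replicate 1 (rank 1211) and 10.4 in replicate 2 (rank 9964). All 5 body regions of myo-3 lay nearer to the 3′ end and had their summits in coding sequence.

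**Figure D4:**
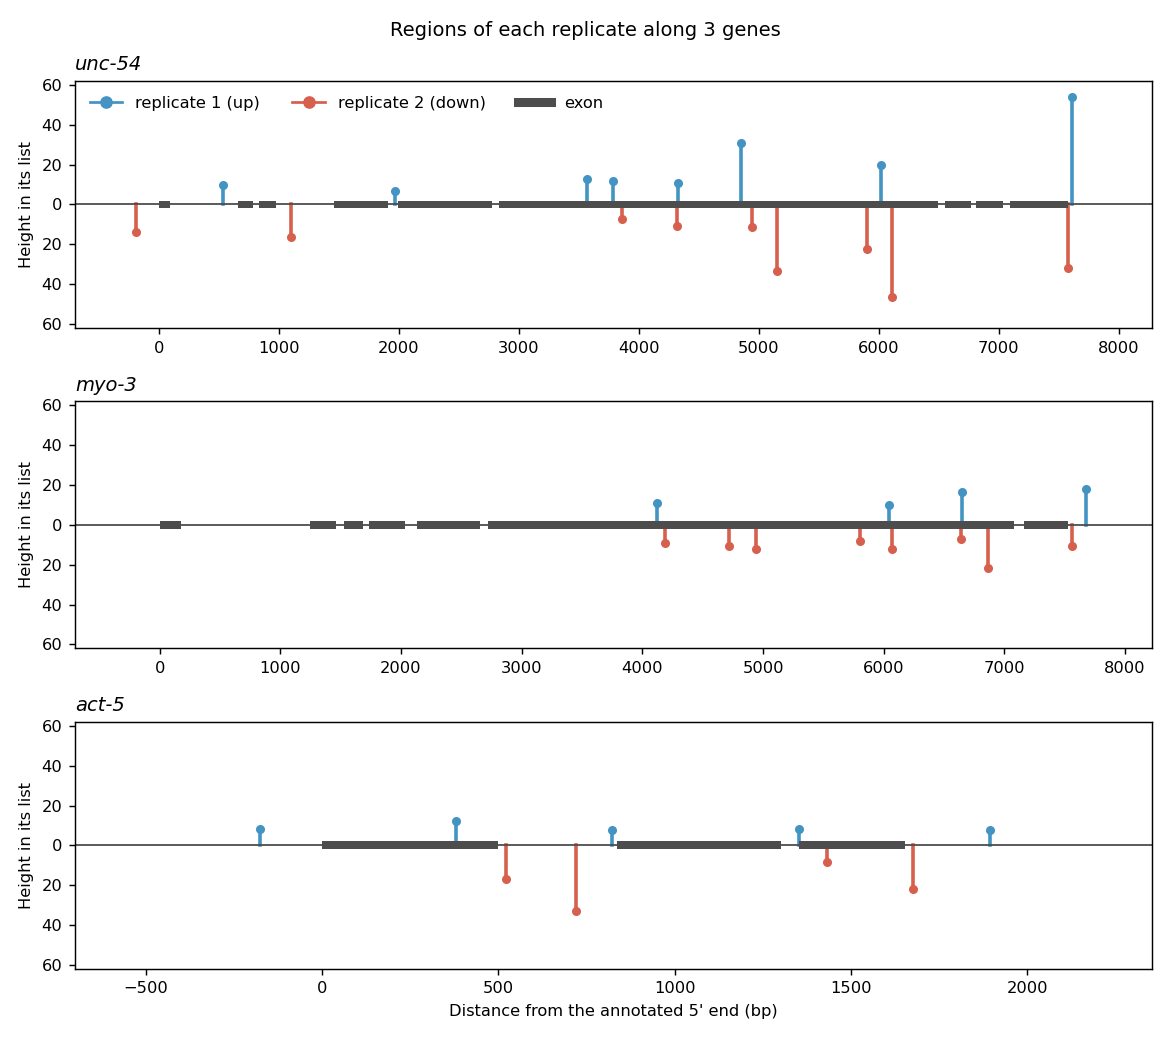
Regions of replicate 1 (upward) and replicate 2 (downward) along unc-54, myo-3 and act-5, with distance from the annotated 5′ end (horizontal axis, bp), height in the list of each replicate (vertical axis) and exons as bars. The heights of the replicates are not on 1 scale. Both replicates have a region at the 3′ end of unc-54, at 54.2 (rank 17) and 31.8 (rank 225). The highest region of act-5 is at 12.1 in replicate 1 (rank 6739) and at 33.1 in replicate 2 (rank 198).

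The pharyngeal heavy chains had few and low regions. At myo-1 (chromosome I, 7258946 to 7267057) the single pooled region, 98 bp beyond the 3′ end, had height 16.3 and rank 12033. It was covered at 9.8 in replicate 2 (rank 11694), and replicate 1 listed no region at the gene. At myo-2 (chromosome X, 12468061 to 12475348) there were 2, a 3′ region of height 21.2 (rank 5026) and a 5′ region of height 17.2 (rank 10162). Replicate 1 covered these at 19.3 (rank 872) and 12.0 (rank 6900), and replicate 2 listed none. For both genes the listing therefore rests on 1 replicate, and it was not the same one.

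Paramyosin, unc-15 (chromosome I, 7376604 to 7383197), had 4 of its 5 pooled regions at the 3′ end. These 4 overlap one after another, and the gene had 2 regions after merging. The highest was 34.4 (rank 862), 223 bp beyond the gene, and was covered in both replicates, at 13.0 in replicate 1 (rank 5063) and 19.99 in replicate 2 (rank 1052). Farther out, the region of height 25.9 at 491 bp was covered at its summit by neither replicate list, the only such region among the 36. The others were between 15.9 and 20.3, including an intronic region 446 bp from the 5′ end.

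Among the actins no pooled region reached the optimal list. At act-5 (chromosome III, 13604412 to 13606066) 4 pooled regions had heights of 38.5, 29.2, 27.7 and 16.6. The highest, with rank 588 and its summit in the first intron, had height 33.1 and rank 198 in replicate 2. In replicate 1 it was at 7.7, rank 23642 of 30000. The region of height 27.7, whose summit is 25 bp beyond the 3′ end, was at 22.2 in replicate 2 (rank 729) and was not covered in replicate 1. The region of height 29.2 was covered in both replicates, at 12.1 (rank 6739) and 16.8 (rank 1992). The regions of height 38.5 and 27.7 were thus high in replicate 2 and low or absent in replicate 1. Of 36-base windows in the region beyond the 3′ end, 26.3% occurred elsewhere in the genome. This was the largest share of any member region among windows within 500 bp of a member.

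At act-4 (chromosome X, 4960621 to 4964413) there were 4 low regions, from 16.5 to 22.7. The highest (rank 3930) lay in the first intron, 99 bp from the 5′ end, at 18.1 and rank 1529 in replicate 2 and not covered in replicate 1. Both others inside the gene also had their summits in introns. The last one, 454 bp beyond the 3′ end, lies inside the convergent neighbour M03F4.6, whose annotated 3′ end abuts that of act-4.

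In the cluster on chromosome V, act-1 (11081052 to 11082415) had its highest region upstream, at height 27.5 and rank 1916, with its summit at an offset of -256 bp from the 5′ end. It was at 18.8 in replicate 1 (rank 996) and 19.95 in replicate 2 (rank 1063), close ranks, though the summits of these replicate regions were at -145 and -370 bp. A low region of 16.7 lay 294 bp beyond the 3′ end. At act-3 (11071690 to 11074498) the only pooled region, of height 36.1 and rank 717, lay 227 bp beyond the 3′ end. It was at 26.0, rank 227, in replicate 1, and at its summit replicate 2 had none. Replicate 2 had a region of height 11.4 (rank 7667) centred 13 bp beyond the same end. At act-2 (11076777 to 11078154) the only pooled region (16.2, rank 12070) lay at an offset of -41 bp from the 5′ end, at 10.3 in replicate 2 (rank 10134) and not covered in replicate 1. Replicate 1 instead listed 13.0 (rank 5023) and 14.0 (rank 3737) at 242 and 463 bp beyond the 3′ end.

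No summit in any list fell in an exon of act-1, act-2 or act-3. Of 14 summits at these 3 genes in the pooled list and both replicate lists together, 0 were exonic, 13 lay outside the genes and 1 was in the intron of act-3. At the other 7 members 50 of 89 summits were exonic. These counts add the 3 lists, so the same site can count more than once. In the pooled list alone, 19 of 32 summits were exonic at the other members and 0 of 4 at act-1, act-2 and act-3. Over all genes, 4419 of 17411 pairs of a pooled summit and a gene were exonic. The annotated exons of these 3 genes amount to 4103 bases, beside 31394 at the other members. These genes also hold the most repeated windows, and no source used here states how reads that match more than 1 place were handled. The part of the repeats in this count was not tested. Of the 36 pooled regions, 32 held no 36-base window that occurs elsewhere.

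**Figure D5:**
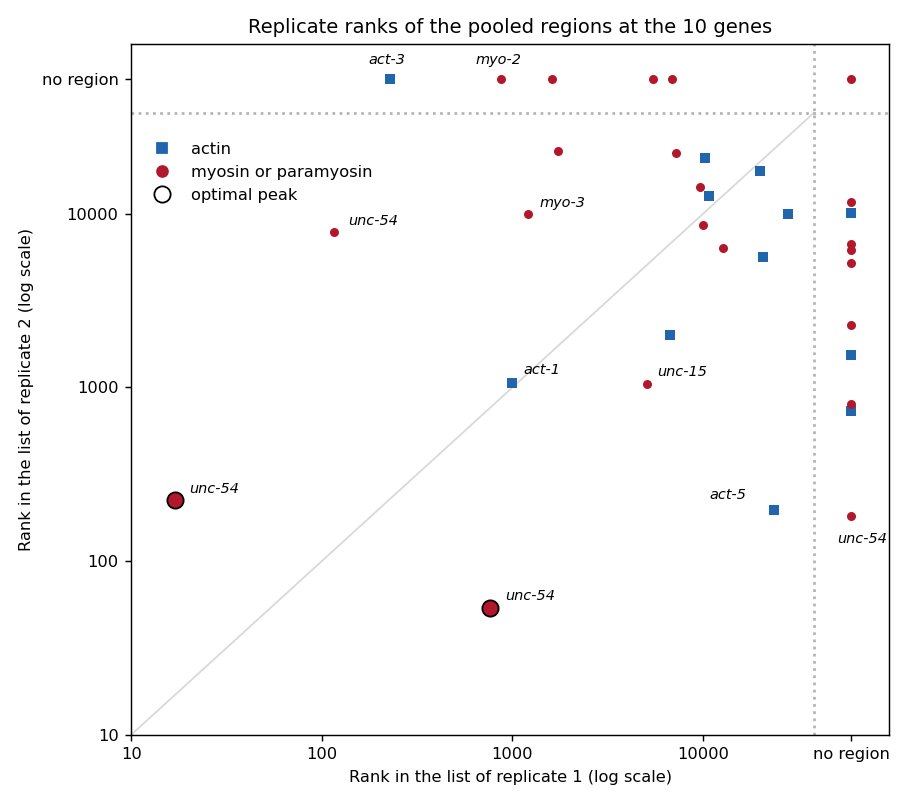
Rank in the list of replicate 1 (horizontal axis, log scale) against that of replicate 2 (vertical axis, log scale) of the region covering each of the 36 pooled summits, actins as squares and myosins or paramyosin as circles. A black edge marks the optimal peaks, and points past the dotted lines had no region in that replicate; the unc-54 peaks lie at ranks 17 and 225 and at 767 and 54, and some points coincide.

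The replicates gave different orders. Of the 36 pooled summits, 20 were covered by a region in both replicates (55.6%, beside 40.5% of all pooled regions), 10 in replicate 2 only, 5 in replicate 1 only and 1 in neither. Overlapping pooled regions, as at unc-54, can share a replicate region and so count more than once. The 36 formed 26 after merging, for which this share was not counted. The shares were also not matched for height, whose median was 21.4 at member regions and 18.1 over the pooled list. When the 368 highest regions of a single replicate took the place of the optimal list, replicate 1 included unc-54 and act-3, and replicate 2 included unc-54 and act-5. The only member in both was unc-54. The pooled list was made from the same reads as the replicate lists, so it is not independent of them.

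Summits inside the members lay mostly in exons. Of the 25 inside a member 19 were exonic (76%), beside 40.4% of pooled summits inside any protein-coding gene, and 11 of 16 (68.8%) without unc-54. At the myosins and paramyosin the count was 17 of 19, in genes whose exons make up 76.9% of their length, against 46.3% over all genes. At the actins it was 2 of 6, in genes with 63.4% exon. Of the 16 body summits, 11 lay nearer to the 3′ end (68.8%, beside 55.1% over all genes), all of them at unc-54 or myo-3. None of the 3 body summits of the actins did. The share was 62.5% without unc-54 and 58.3% after overlapping regions were merged. It was 50% in the list of replicate 1 and 68.4% in that of replicate 2. The windows of 101 bases at member summits had a median G and C content of 41.6%, beside 31.7% for all pooled summits. It was 49.5% at exonic member summits, beside 36.6% at all pooled summits in exons of protein-coding genes, and 33.7% at other member summits. The content of the members' exons away from summits was not set beside these values.

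The strands at 4 of the leading summits outside unc-54 are shown for their different composition, each 151 bases on the strand of the gene with the 21 bases around the summit in capitals. They come from chrV:11080721-11080871 upstream of act-1, chrV:11071388-11071538 beyond act-3, chrIII:13605323-13605473 in the first intron of act-5, and chrV:12227402-12227552 in the coding sequence of myo-3, in RefSeq's copy of WBcel235.
act-1: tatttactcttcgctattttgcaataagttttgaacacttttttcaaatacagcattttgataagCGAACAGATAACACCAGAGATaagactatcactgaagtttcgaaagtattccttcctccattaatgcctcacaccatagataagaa
act-3: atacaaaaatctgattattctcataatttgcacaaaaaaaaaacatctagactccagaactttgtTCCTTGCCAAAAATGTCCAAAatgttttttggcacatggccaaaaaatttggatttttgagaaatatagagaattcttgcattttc
act-5: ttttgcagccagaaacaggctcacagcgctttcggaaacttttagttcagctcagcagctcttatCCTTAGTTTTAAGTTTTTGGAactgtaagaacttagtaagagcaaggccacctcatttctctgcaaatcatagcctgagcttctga
myo-3: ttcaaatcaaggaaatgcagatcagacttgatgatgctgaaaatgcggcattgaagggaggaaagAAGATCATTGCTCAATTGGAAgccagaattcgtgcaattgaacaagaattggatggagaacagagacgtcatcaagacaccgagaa
Over the 151 bases the G and C content was 33.1% at act-1, 29.1% at act-3, 42.4% at act-5 and 41.7% at myo-3.

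Other genes of muscle and of the actin cytoskeleton were examined as a wider list of 53 genes. Of these, 5 had an optimal peak (9.43%, beside 2.38% of all protein-coding genes), 9 had one of the 1000 highest pooled regions (5.81% of all genes did) and 41 had any pooled region (46.2% of all genes did). Of the 23 genes of 6000 bp or more on the list, 3 had an optimal peak, 5 had one of the 1000 highest and 20 had any pooled region, beside 5.09%, 12.4% and 80.7% of all genes of that length. The median of the highest heights was 22.8 over the 41 genes with a pooled region, against 30.1 for the members, all of which had one. The twitchin gene unc-22, of 38311 bp, had its highest region in an exon (65.4, rank 98), at 38.0 in replicate 1 (rank 66) and 30.4 in replicate 2 (rank 260). The obscurin-like gene unc-89, of 55184 bp, had 2 optimal peaks, the higher at 52.5 (rank 193), with ranks 635 and 174 in replicates 1 and 2.

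Among thin filament genes, lev-11, which encodes tropomyosin, had a region of height 58.8 (rank 140) 216 bp beyond its 3′ end, at rank 48 in replicate 1 and 1636 in replicate 2. The capping protein gene cap-2 had a region of height 56.2 (rank 160) at an offset of -223 bp from its 5′ end, which is also -253 bp from that of gmps-1, at ranks 501 and 229. Of the 13 attachment genes pat-4, which encodes integrin-linked kinase, had an optimal peak, at 50.8 (rank 219) and 43 bp beyond its 3′ end, with ranks 238 and 974. None of the 3 excitation genes or the 11 genes of non-muscle myosin and actin assembly had one. Only 2.38% of all protein-coding genes had an optimal peak, so groups of this size cannot show a difference between roles, and none was tested.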

How the data were processed

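Lists of regions on ce11 from a ChIP-seq experiment were used, 1 for each of the 2 replicates, 1 for the pooled replicates and the optimal list. Per the file records the pooled list rests on both replicate alignments and on 1 more file, which also entered the tracks called control normalized. No source used here states the aligner, the peak caller or the threshold. The deposited signal value of each region, whose scaling is not stated, is called its height, and the −log10 of the q-value that the authors deposited only served to count regions at its maximum. The lists on ce10 were not analysed here. Region starts were made 1-based.

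Gene spans and exons came from Ensembl release 115, whose assembly WBcel235 is that of ce11, and all regions lay within its chromosomes. A region belonged to a gene when its summit lay in the gene or within 500 bp, so a summit can count for 2 genes. It was placed at the nearer end when within 500 bp of one, otherwise in the body. A pooled summit was covered in a replicate when any region listed there contained it, and the tallest one supplied the height. Identity was computed from the longest annotated coding sequences by global alignment (Biopython 1.88, Python 3.11.15), and sequence came from the RefSeq genome. The assignment was tested on simulated data. No statistical test was run, since there is 1 group. The members and lists were chosen with earlier results of these data known, and 2 of 55 genes of the wider list were not found by name. Named genes were the members, the wider genes with an optimal peak or among the 4 highest, the genes nearest to a described summit and those next in rank to unc-54.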

Additional observations from a re-analysis of the deposited data

How the results depend on the processing

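The windows, the overlap rule, the gene assignment, the gene models, the replicate list and the list limit were varied, giving 59 alternative values for the counts and shares of the members, and 53 of these stayed within 1.5 times the reported value. Values of single genes depended more on the setting, and 17 of 38 moved. The rank of the highest region of a gene was called moved when it changed by more than the standard deviation of its ranks in both replicates. A gene listed in 1 replicate only had no such deviation, and its rank was also called moved. This held for 9 of 18 single-replicate values, such as act-3 from 717 to 7667 without replicate 1. Another was act-5, from 588 to 6739 without replicate 2. The share of repeated windows moved in 5 of 10 and the density, with merging added after the data were seen, in 3 of 10. Only unc-54 had an optimal peak with windows of 250 and 1000 bp, by any overlap, for the nearest gene only, with RefSeq spans and among the 184 highest optimal peaks. With the 368 highest regions of a single replicate there were 2 members, unc-54 and act-5 without replicate 1, and unc-54 and act-3 without replicate 2. The 6 regions at 5′ ends became 3 with ends of 250 bp and 10 with ends of 1000 bp, and the 14 at 3′ ends became 9 with ends of 250 bp, by construction of the classes. The median share of repeated windows over the actins, 35.4% with 36 bases, was 10.6% with 100 bases. The shares of summits in exons and nearer to the 3′ end were examined with alternatives added after the data were seen. No paired analysis was possible because all samples form 1 group. Without read counts, no interval for a height could be given.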
